A study of Mus musculus with 6 samples.

Results

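The respiratory chain of the inner mitochondrial membrane is built from subunits encoded in the nucleus together with a small set encoded by mitochondrial DNA. The genes described here are its nuclear subunit genes: the protein-coding genes of the deposited count table whose symbols belong to the Nduf, Sdh, Uqcr, Cox4 to Cox8 and Atp5 families. The rule uses symbol and biotype and no measured value, though it was set with earlier results of these data known. Cox6a2 was left out by name, and symbols such as Ndufab1 and Ndufaf1 lie outside the rule. The set numbers 84 of the 54532 genes in the table: 37 of complex I, 4 of complex II, 8 of complex III, 17 of complex IV and 18 of complex V.

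The 3 ruxolitinib libraries were made from RNA of CD8 bead-selected bone marrow cells taken from ruxolitinib-treated mice with immune bone marrow failure; ruxolitinib is a drug that blocks the cytokine-receptor kinases JAK1 and JAK2. The 3 control libraries came from the same selection in mice with the same disease that were not treated. All mice were female CByB6F1 hybrids aged 2 to 5 months, and each library pooled 2 to 3 mice of a group, so a library stands for a pool and not for an animal. Dose, treatment time and the way the marrow failure was induced are not given. The design sets the transcriptomes of CD8 bead-selected marrow cells from treated mice against those from untreated mice.

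Complex I (NADH dehydrogenase) and complex II (succinate dehydrogenase) pass electrons to ubiquinone, complex III passes them to cytochrome c, and complex IV (cytochrome c oxidase) passes them to oxygen. Complexes I, III and IV pump protons as they do so, and complex V, the ATP synthase, uses the resulting gradient to make ATP. Complex II is the only one of them whose subunits are all nuclear. Activated T cells make more mitochondria and raise respiration together with glycolysis, and developing red cells lose their mitochondria at the end of their maturation.

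The libraries held 13829808 to 14139605 counts in the ruxolitinib group and 15740514 to 17708196 in the control group. The RNA of cell type marker genes differed between the groups. Geometric mean levels of 16 CD8 T cell identity genes, such as Cd8a, Cd3e and Lck, were 102, 124 and 282 CPM in ruxolitinib pools 1, 2 and 3, against 623, 606 and 462 CPM in control pools 4, 5 and 6 (CPM, a gene's count scaled to its library's total and TMM factor). Haemoglobin genes took 22.6%, 17.5% and 13.4% of the counts in the ruxolitinib pools, against 0.189%, 0.179% and 0.258% in the controls. Among all 13480 genes tested, 25.3% were called lower and 29.9% higher. Of the marker lists, 15 of 16 CD8 identity genes were called lower, while 11 of 11 erythroid, 11 of 11 monocyte and macrophage, 9 of 9 B cell, 6 of 8 neutrophil and 4 of 5 plasmacytoid dendritic cell genes were called higher. Their summed levels did not overlap between groups: 125349 to 245734 CPM under ruxolitinib and 1865 to 2695 CPM in controls for erythroid genes, 8809 to 14418 CPM under ruxolitinib and 1139 to 1559.7 CPM in controls for monocyte and macrophage genes, 1051 to 1639 CPM under ruxolitinib and 206 to 267 CPM in controls for B cell genes, 8761 to 20439 CPM under ruxolitinib and 1566 to 6078 CPM in controls for neutrophil genes and 77.7 to 105 CPM under ruxolitinib and 42.3 to 62.6 CPM in controls for plasmacytoid dendritic cell genes. Of the 7 proliferation genes, the remaining list, 1 was called lower and 2 higher, and their summed levels overlapped between the groups. Fewer cells of a type and less RNA per cell cannot be told apart in such bulk samples, and the part of the other cells in the results below was not tested. Control pools 4 and 5 were the closest pair, and control pool 6 stood apart from them. Over the genes compared, the chi-square per degree of freedom was 71.8, 96.3 and 90.2 between the pairs of ruxolitinib pools, 19.3 between control pools 4 and 5, 136 between control pools 4 and 6, and 106 between control pools 5 and 6, so the ruxolitinib pools also differed from each other.

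Relative to the whole RNA of each library, most nuclear respiratory chain genes were lower in the ruxolitinib libraries, a direction that turned round when libraries were scaled to the CD8 T cell identity genes. Of the 79 members with enough counts to be tested, 66 were called lower, 1 was called higher and 12 passed the test in neither direction (edgeR's quasi-likelihood test, Benjamini-Hochberg adjusted p under 0.05 over all 13480 genes tested). Over all genes tested, 25.3% were called lower and 29.9% higher. The median log2 fold change of the members was -1.34, a level of 0.396 times that of the controls, where the median of all genes was 0.03. All ruxolitinib pools lay below all control pools for 67 members and above them for 4, against 30.3% and 35.7% of all genes tested.

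The members not tested had few counts or none. Ndufa4l2, a paralogue of Ndufa4, had 2, 0 and 3 counts in the ruxolitinib pools and 0 in each control pool. The muscle-type isoform Cox8b had 3, 0 and 2 counts in the ruxolitinib pools and 0 in each control pool. Cox8c had 0 counts in each ruxolitinib pool and 0, 1 and 0 in the control pools, and Cox7b2 and a second Atp5o identifier had none in any library.

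**Figure D1:**
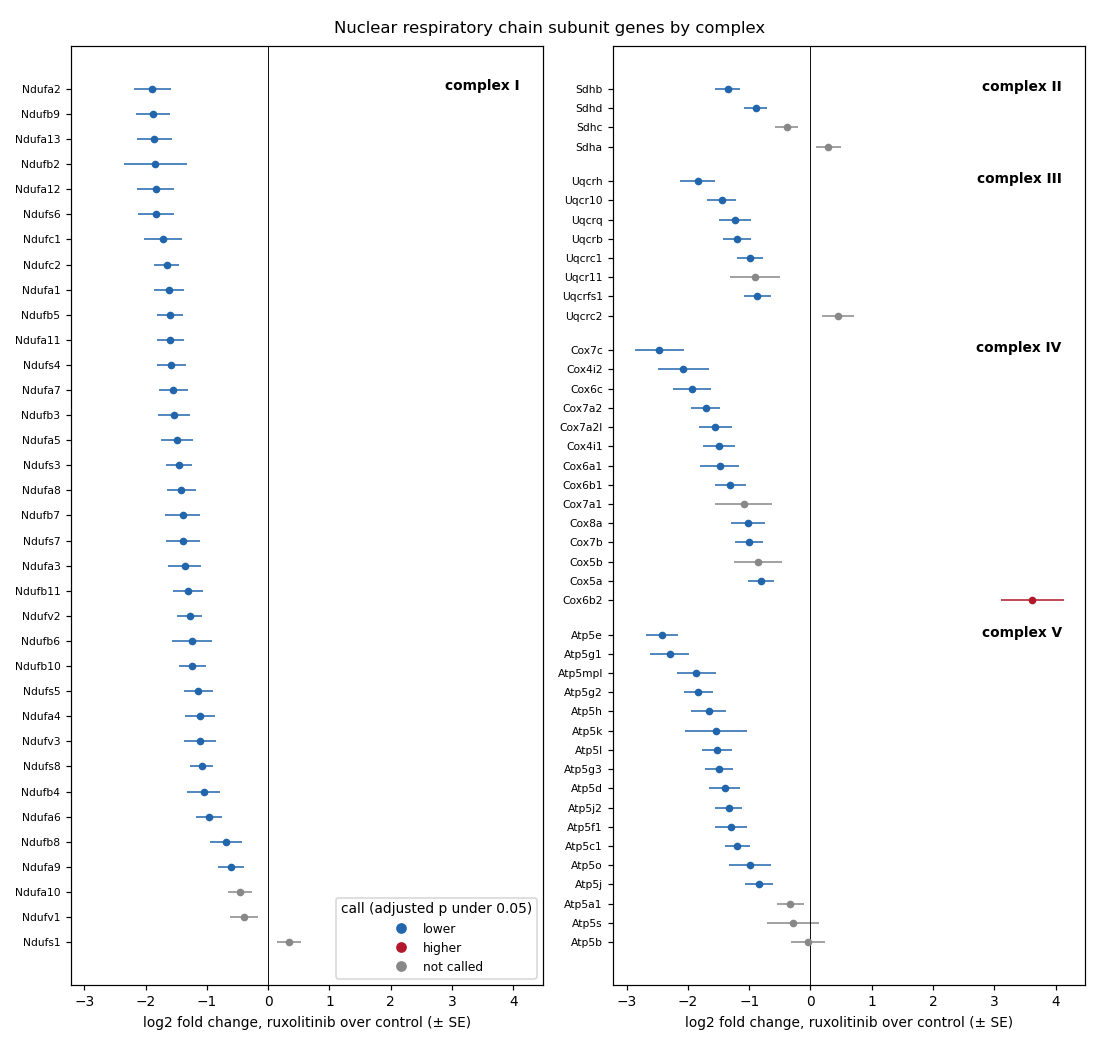
Log2 fold change (ruxolitinib over control, horizontal axis) of tested nuclear respiratory chain genes, ordered within its complex, with bars of 1 standard error. Blue points are genes called lower, the red point is Cox6b2, and grey points are the 12 genes not called, among them Sdha, Uqcrc2, Atp5a1 and Atp5b; fold changes use TMM scaling, and scaled to the CD8 identity genes the median of the members is 0.64.

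As a share of all counts, the 84 genes together took 0.730%, 1.01% and 1.02% in ruxolitinib pools 1, 2 and 3, against 1.94%, 2.12% and 2.18% in control pools 4, 5 and 6. The groups did not overlap, and the means were 0.920 ± 0.165% under ruxolitinib and 2.08 ± 0.125% in controls (SD, n = 3 pools each). By complex the ruxolitinib shares were 0.422 times the control share for complex I, 0.692 times for complex II, 0.455 times for complex III, 0.375 times for complex IV and 0.477 times for complex V, again with no overlap between the groups in any complex. In reads, complex V was the most abundant set in both groups, at 0.349 ± 0.0546% under ruxolitinib and 0.732 ± 0.0232% in controls, and complex II the least, at 0.0538 ± 0.00528% under ruxolitinib and 0.0777 ± 0.00290% in controls.

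Most subunits encoded by mitochondrial DNA were higher instead. The 13 genes took 2.26%, 1.94% and 2.06% of counts in the ruxolitinib pools, against 0.769%, 0.654% and 0.637% in the control pools. For each read of a nuclear subunit gene there were 3.09, 1.93 and 2.01 reads of a mitochondrially encoded one in the ruxolitinib pools, against 0.396, 0.308 and 0.292 in the controls. Of the 12 tested, 8 were called higher and 1 lower, where 29.9% and 25.3% of all genes were, with a median log2 fold change of 1.05. mt-Co1, the catalytic subunit of complex IV, was at 11940.1, 9778 and 9181 CPM in ruxolitinib pools 1 to 3, against 2489.6, 1826 and 919 CPM in control pools 4 to 6 (log2 fold change 2.56 ± 0.39, adjusted p = 0.000535). mt-Nd5, a proton-pumping subunit of complex I, was at 999.7, 799 and 894 CPM in ruxolitinib pools 1 to 3, against 173, 153 and 296 CPM in control pools 4 to 6 (log2 fold change 2.11 ± 0.30, adjusted p = 0.000373). mt-Cytb, the cytochrome b of complex III, was at 3819, 3559.7 and 2993 CPM in ruxolitinib pools 1 to 3, against 1523, 1399 and 1020.2 CPM in control pools 4 to 6 (log2 fold change 1.40 ± 0.27, adjusted p = 0.0019). All 3 ruxolitinib pools lay above all controls for each of these genes. The gene called lower was mt-Nd3 (log2 fold change -1.29 ± 0.34, adjusted p = 0.00907), at 3.44, 3.50 and 2.65 CPM in ruxolitinib pools 1 to 3, against 6.15, 6.80 and 10.6 CPM in control pools 4 to 6. It was at -0.49 and not called with length offsets, and at 0.68 when scaled to the CD8 identity genes. Of those not called, mt-Co3 (log2 fold change -1.87 ± 0.80, adjusted p = 0.0705) and mt-Nd6 (log2 fold change -0.49 ± 0.38, adjusted p = 0.297) also had negative values, with control pool 6 the highest library in both, and mt-Co2 had a positive one (log2 fold change 0.48 ± 0.21, adjusted p = 0.0775). Copies of mitochondrial DNA in the nuclear genome can share reads with these genes, and how reads with several matches were counted is not given, so single mitochondrial genes are uncertain.

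**Figure D2:**
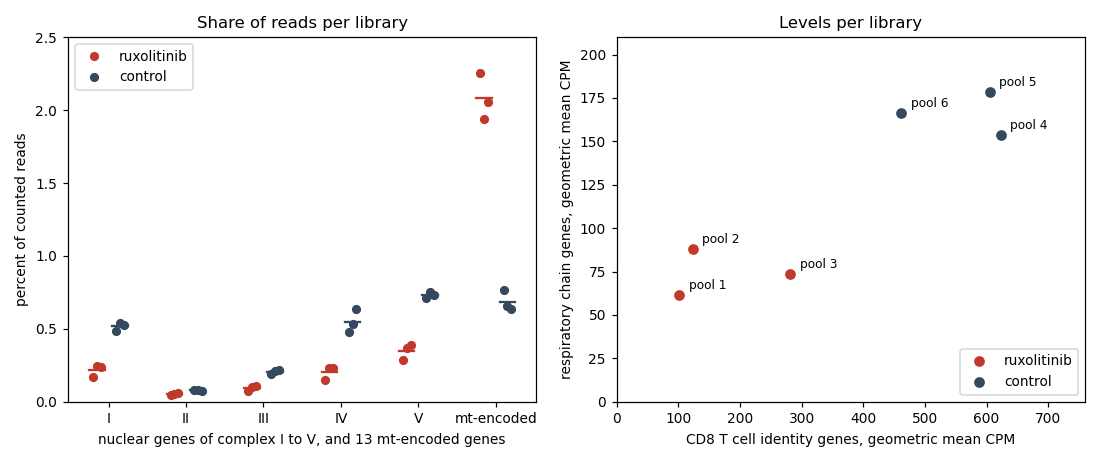
Left, percent of counted reads in the nuclear genes of complexes I to V and in the 13 mitochondrially encoded genes, 1 point per library with a line at the mean of 3. Right, geometric mean CPM of the respiratory chain genes against that of 16 CD8 T cell identity genes, where the ruxolitinib libraries lie at 61.2 to 87.8 CPM on the vertical axis, all below the controls at 154 to 178 CPM.

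The respiratory chain and the CD8 identity genes were low in the same libraries. Their levels did not keep a fixed ratio: the geometric mean of the members divided by that of the identity genes was 0.601, 0.708 and 0.261 in the ruxolitinib pools, against 0.247, 0.295 and 0.360 in the control pools. Ruxolitinib pool 3, with the most CD8 identity RNA of the treated pools, lay within the control range of this ratio, while pools 1 and 2 lay above it. When each library was scaled to the CD8 identity genes instead of TMM, no member was called lower (0.46% of all genes tested were) and 12 were called higher (70.9% of all genes). The median of the members was then 0.64, against 2.02 for all genes. Cox7c (-0.60), Atp5e (-0.51), Atp5g1 (-0.45), Cox4i2 (-0.15) and Cox6c (-0.069) were the members still below 0, none of them called. Standard errors were larger than under TMM, at 0.57 against 0.40 for Cox7c and 0.57 against 0.26 for Atp5e. A missing call is therefore less precise under this scaling. Under both scalings the median of the members lay below that of all genes. Unless said otherwise, every direction below is relative to the whole RNA of the library.

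Promoters of respiratory chain genes are known for sites of NRF-1 and of the ETS factor GABP. RefSeq promoter windows of GRCm38.p6, from 250 bases before to 50 after the gene start, were found for 66 of the 84 members and for 27025 genes in all, and were searched on both strands. The NRF-1 core GCATGCGC was in 10 member promoters (15.2%), against 3.05% of all genes. The ETS core CCGGAAG was in 16 (24.2%), against 9.93% of all. The YY1 core AAGATGGC was in 9 (13.6%), against 3.19% of all. The GAS element TTCNNNGAA, the STAT site of cytokine signalling, was in 4 (6.06%), against 9.55% of all. The comparison is with every gene that has a window, expressed in these libraries or not, so it is not matched to the members. These are matches of letters and not measured binding, and a promoter can hold more than 1 of them.

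Sequences are shown for the pairs that parted in complex II and complex IV, and for the members with the lowest fold change in complex III and the smallest adjusted p in complex V, as the 120 bases before the RefSeq start (GRCm38.p6, gene strand, 5′ to 3′). Capitals mark the NRF-1 core GCATGCGC or the ETS core, read as CCGGAAG or its reverse complement CTTCCGG; sequences all in lower case hold neither there.
Sdhb, chr4:140961151-140961270 (+ strand): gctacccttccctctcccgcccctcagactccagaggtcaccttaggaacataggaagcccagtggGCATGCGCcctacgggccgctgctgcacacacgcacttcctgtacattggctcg
Sdha, chr13:74350241-74350360 (- strand): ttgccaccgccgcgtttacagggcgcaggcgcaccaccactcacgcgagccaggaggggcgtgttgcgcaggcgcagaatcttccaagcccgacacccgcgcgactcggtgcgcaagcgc
Uqcrh, chr4:116075071-116075190 (- strand): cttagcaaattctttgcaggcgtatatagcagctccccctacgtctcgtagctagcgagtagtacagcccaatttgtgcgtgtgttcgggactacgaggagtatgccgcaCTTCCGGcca
Cox6b1, chr7:30626115-30626234 (- strand): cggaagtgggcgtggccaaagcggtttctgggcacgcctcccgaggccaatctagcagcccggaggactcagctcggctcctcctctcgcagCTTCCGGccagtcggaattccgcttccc
Cox6b2, chr7:4753095-4753214 (- strand): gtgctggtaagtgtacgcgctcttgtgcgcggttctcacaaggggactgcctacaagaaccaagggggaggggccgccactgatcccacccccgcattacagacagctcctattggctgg
Atp5e, chr2:174464102-174464221 (- strand): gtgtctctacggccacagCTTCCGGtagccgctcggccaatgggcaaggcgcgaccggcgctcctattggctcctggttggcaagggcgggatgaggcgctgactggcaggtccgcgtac
Sdhb, Uqcrh, Cox6b1 and Atp5e were called lower, Sdha was not called, and Cox6b2 was called higher. The genes shown do not stand for the set. Others called lower, such as Cox7c, Ndufa13 and Atp5g1, hold neither core in these bases, and Uqcr11, not called, holds an ETS core. The matches in this window are a description of a few genes and say nothing of which factor acts on them.

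Of the 36 tested genes of complex I, 33 were called lower and none higher, with a median of -1.39 (0.57 when scaled to the CD8 identity genes). Among the 28 accessory subunits, which surround and stabilise the catalytic core, 27 were lower, with a median of -1.51. Among the 7 core subunits that carry the flavin or iron-sulphur clusters, 5 were lower, with a median of -1.08. Ndufa4, placed here by its symbol, encodes a protein now assigned to complex IV.

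The lowest fold change in complex I was that of Ndufa2, an accessory subunit of the arm that oxidises NADH. It had 60.4, 124 and 88.0 CPM in ruxolitinib pools 1 to 3, against 260.2, 337 and 409.8 CPM in control pools 4 to 6, so the highest treated pool was below the lowest control (log2 fold change -1.89 ± 0.30, adjusted p = 7e-04). Ndufa2 also had the highest level per kilobase in the complex, 159 CPM per kilobase under ruxolitinib and 587 in controls. Other accessory subunits with large falls were Ndufb9 (-1.88), Ndufa13 (-1.85), which is also known as GRIM-19, and Ndufs6 (-1.83). Ndufb2 fell by 1.84 on the log2 scale, with uneven control pools, at 10.1, 7.75 and 7.02 CPM in ruxolitinib pools 1 to 3, against 13.5, 17.2 and 58.4 CPM in control pools 4 to 6, and was not called with no filter.

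Within the core, Ndufs7, which lies by the ubiquinone site, had 66.7, 97.3 and 79.3 CPM in ruxolitinib pools 1 to 3, against 162, 183 and 291 CPM in control pools 4 to 6 (log2 fold change -1.39 ± 0.27, adjusted p = 0.00204). Ndufs8, with a pair of iron-sulphur clusters, had 87.7, 85.8 and 80.6 CPM in ruxolitinib pools 1 to 3, against 164, 187 and 188 CPM in control pools 4 to 6 (log2 fold change -1.08 ± 0.19, adjusted p = 0.000978). In both genes, every treated pool lay below every control.

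Ndufs1 and Ndufv1, which belong to the arm that takes electrons from NADH, were not called. Ndufs1, the largest core subunit, had 63.7, 57.1 and 49.9 CPM in ruxolitinib pools 1 to 3, against 46.0, 49.0 and 39.3 CPM in control pools 4 to 6, with all treated pools above all controls (log2 fold change 0.35 ± 0.19, adjusted p = 0.157). Ndufv1, which binds NADH and the flavin, had 76.5, 120.2 and 86.0 CPM in ruxolitinib pools 1 to 3, against 121, 141 and 109 CPM in control pools 4 to 6 and the groups overlapped (log2 fold change -0.39 ± 0.23, adjusted p = 0.166). Ndufv2, their partner in the same arm, was called lower (-1.28). Ndufa10 (log2 fold change -0.46 ± 0.20, adjusted p = 0.07) also missed the threshold. Ndufb8 (-0.69) and Ndufa9 (-0.60) were called lower, but each lost its call without ruxolitinib pool 1 or 3, without control pool 4 or 5, with total-count scaling (adjusted p = 0.0693 for Ndufb8 and 0.051 for Ndufa9) and with length offsets (adjusted p = 0.0565 for Ndufb8 and 0.0892 for Ndufa9).

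In complex II, 2 of 4 genes were called lower, with a median of -0.64 (1.37 when scaled to the CD8 identity genes). Sdhb (mm10 chr4:140961203-140979193, plus strand), the iron-sulphur subunit, whose promoter holds an NRF-1 core, had 101, 121 and 114 CPM in ruxolitinib pools 1 to 3, against 257, 279.6 and 322 CPM in control pools 4 to 6 (log2 fold change -1.35 ± 0.20, adjusted p = 0.000521). Sdhd, a membrane anchor, had 94.6, 111 and 96.1 CPM in ruxolitinib pools 1 to 3, against 183, 203 and 174 CPM in control pools 4 to 6 (log2 fold change -0.89 ± 0.19, adjusted p = 0.00324). In both genes every treated pool was below every control. Sdhc, the other anchor, had 112, 129.5 and 108 CPM in ruxolitinib pools 1 to 3, against 151, 165 and 141 CPM in control pools 4 to 6; its groups did not overlap, but it was not called (log2 fold change -0.39 ± 0.19, adjusted p = 0.109). Sdha, the flavoprotein that oxidises succinate, was not called and lay the other way, at 189, 217 and 198 CPM in ruxolitinib pools 1 to 3, against 175, 182 and 137 CPM in control pools 4 to 6 (log2 fold change 0.29 ± 0.20, adjusted p = 0.249). The log2 ratio of Sdhb to Sdha reads was -0.90, -0.84 and -0.79 in the ruxolitinib pools, against 0.55, 0.62 and 1.24 in the controls, with no overlap. Sdhb and Sdha have the lowest and the highest fold change of the complex, so a gap in their ratio follows from that choice. Sdha (4126 bases) is the longest gene of the complex by deposited length, and Sdhb is 2239 bases long.

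Complex III had 6 of 8 genes lower, with a median of -1.09 (0.90 when scaled to the CD8 identity genes). Uqcrh, the hinge subunit near cytochrome c1, had 148, 188 and 179 CPM in ruxolitinib pools 1 to 3, against 454, 524 and 866 CPM in control pools 4 to 6 (log2 fold change -1.84 ± 0.29, adjusted p = 0.000637). Uqcr10 (-1.45), Uqcrq (-1.24) and Uqcrb (-1.20), further small subunits, were also lower, whereas Uqcr11, at 30.1, 97.9 and 46.1 CPM in ruxolitinib pools 1 to 3, against 116, 137 and 71.4 CPM in control pools 4 to 6, overlapped between groups and was not called (log2 fold change -0.90 ± 0.41, adjusted p = 0.0873), though it was without ruxolitinib pool 2 (-1.51) or control pool 6 (-1.14). Uqcrfs1, the Rieske iron-sulphur protein that carries electrons out of the ubiquinol site, had 107, 131 and 128 CPM in ruxolitinib pools 1 to 3, against 231, 259 and 178 CPM in control pools 4 to 6 (log2 fold change -0.87 ± 0.22, adjusted p = 0.00775).

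The core proteins of complex III, which have no redox centre and form a pair in the matrix, parted. Uqcrc1 had 201, 247 and 224 CPM in ruxolitinib pools 1 to 3, against 407, 458 and 461 CPM in control pools 4 to 6 (log2 fold change -0.98 ± 0.21, adjusted p = 0.0032). Uqcrc2 had 84.9, 88.2 and 98.1 CPM in ruxolitinib pools 1 to 3, against 83.4, 73.2 and 42.0 CPM in control pools 4 to 6, with no call (log2 fold change 0.45 ± 0.26, adjusted p = 0.165). Here the gene called lower is the longer, with 4135 bases for Uqcrc1 and 2552 for Uqcrc2. With length offsets Uqcrc1 was at -1.07 and called lower, and Uqcrc2 was at 0.66 and called higher. The log2 ratio of Uqcrc1 to Uqcrc2 was 1.24, 1.49 and 1.19 in the ruxolitinib pools, against 2.29, 2.64 and 3.46 in the controls. Uqcrc2 has the highest fold change of the complex, so a gap in this ratio follows in part from its choice.

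**Figure D3:**
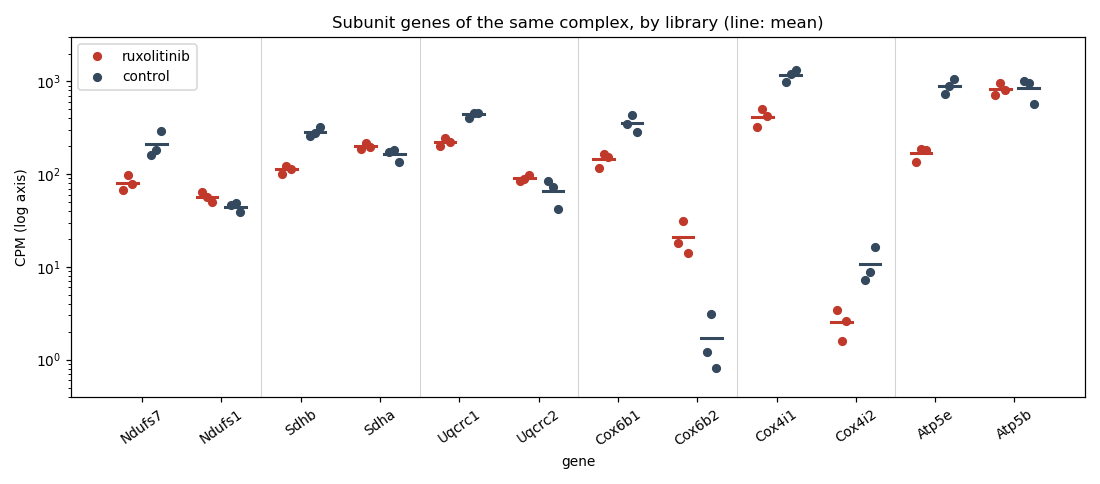
CPM (log axis) of 12 subunit genes in each library, ruxolitinib left of control for each gene, with a line at the mean of 3; grey lines part the pairs, each from a single complex. Sdhb, Uqcrc1 and Atp5e are lower in all ruxolitinib libraries while Sdha, Uqcrc2 and Atp5b are not, and Cox6b2 is higher in all of them. Sdhb with Sdha and Atp5e with Atp5b are the lowest and highest fold changes of their complex.

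Complex IV had 11 of 14 tested genes lower and 1 higher, with a median of -1.39 (0.56 when scaled to the CD8 identity genes). Its nuclear subunits surround a catalytic core that is made in the mitochondrion. Of the 10 subunits used in most tissues 9 were called lower. Cox7c showed the lowest fold change of all members, at 89.3, 144 and 120.5 CPM in ruxolitinib pools 1 to 3, against 374, 509 and 1069 CPM in control pools 4 to 6 (log2 fold change -2.46 ± 0.40, adjusted p = 0.000746), with control pool 6 above the other controls. Cox4i1, which binds ATP as part of the control of the enzyme, had 321, 504 and 428 CPM in ruxolitinib pools 1 to 3, against 980, 1208 and 1315 CPM in control pools 4 to 6 (log2 fold change -1.48 ± 0.26, adjusted p = 0.00117). Cox5a, the binding partner of Cox4i1, had 107, 129 and 122 CPM in ruxolitinib pools 1 to 3, against 216, 237 and 172 CPM in control pools 4 to 6 (log2 fold change -0.81 ± 0.21, adjusted p = 0.00895). Cox6a1 had 249, 455 and 300.3 CPM in ruxolitinib pools 1 to 3, against 693, 876 and 1232 CPM in control pools 4 to 6 (log2 fold change -1.48 ± 0.32, adjusted p = 0.00324) and the highest level per kilobase of all members, 477 CPM per kilobase under ruxolitinib and 1329.9 in controls. The groups did not overlap in any of these. Cox5b, which binds zinc, was at 61.5, 138 and 95.7 CPM in ruxolitinib pools 1 to 3, against 220, 227 and 86.3 CPM in control pools 4 to 6 and was not called (log2 fold change -0.85 ± 0.39, adjusted p = 0.0914), with control pool 6 within the treated range.

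Several complex IV subunits have isoforms made from separate genes. Cox6b2 (mm10 chr7:4751792-4753094, minus strand), known in mammals as the testis isoform of the subunit that helps to join the enzyme into a dimer, was the only member called higher. It had 18.1, 31.2 and 14.2 CPM in ruxolitinib pools 1 to 3, against 1.22, 3.14 and 0.810 CPM in control pools 4 to 6, with no overlap between groups (log2 fold change 3.62 ± 0.51, adjusted p = 0.000375). With 1 pool left out at a time the log2 fold change ran from 3.23 to 4.36, the highest without control pool 5, which held the highest control level. It was 5.74 when scaled to the CD8 identity genes, where the median of all genes was 2.02. Its widely used paralogue Cox6b1 was lower, at 115, 163 and 155 CPM in ruxolitinib pools 1 to 3, against 349.5, 439 and 283 CPM in control pools 4 to 6 (log2 fold change -1.31 ± 0.25, adjusted p = 0.00177). Cox6b2 reads were still the fewer: per kilobase, Cox6b2 was at 19.1 CPM per kilobase under ruxolitinib and 1.55 in controls, and Cox6b1 at 204 CPM per kilobase under ruxolitinib and 504 in controls.

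The other isoforms did not take this course. Cox4i2, the isoform known from lung and from cells short of oxygen, had 3.44, 1.60 and 2.59 CPM in ruxolitinib pools 1 to 3, against 7.14, 8.77 and 16.3 CPM in control pools 4 to 6 (log2 fold change -2.07 ± 0.42, adjusted p = 0.00255), and its log2 ratio to Cox4i1 overlapped between groups. Cox7a1, the heart and muscle isoform, was at 0.585, 0.532 and 0.632 CPM in ruxolitinib pools 1 to 3, against 1.33, 1.31 and 1.12 CPM in control pools 4 to 6 and was not called (log2 fold change -1.09 ± 0.47, adjusted p = 0.0728). Cox7a2, the isoform of most tissues, had 87.7, 106 and 88.9 CPM in ruxolitinib pools 1 to 3, against 255, 288 and 383 CPM in control pools 4 to 6 (log2 fold change -1.71 ± 0.23, adjusted p = 0.000299). Cox7a2l, which ties complex III to complex IV in supercomplexes, had 173, 212 and 228 CPM in ruxolitinib pools 1 to 3, against 451, 569 and 775 CPM in control pools 4 to 6 (log2 fold change -1.55 ± 0.26, adjusted p = 0.000992). Cox8a, the form used in most tissues, had 178, 345 and 255 CPM in ruxolitinib pools 1 to 3, against 579.6, 547 and 447 CPM in control pools 4 to 6 (log2 fold change -1.02 ± 0.28, adjusted p = 0.0117), against a handful of counts or none for Cox8b and Cox8c. Ndufa4 had 80.9, 139 and 115 CPM in ruxolitinib pools 1 to 3, against 247, 265 and 213 CPM in control pools 4 to 6 (log2 fold change -1.12 ± 0.24, adjusted p = 0.0036).

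Complex V had 14 of 17 tested genes lower and none higher, with a median of -1.40 (0.55 when scaled to the CD8 identity genes). Among these nuclear genes, the tested ones of the stalks and the membrane part were called lower, and those of the catalytic head were not called. Atp5a1, the alpha subunit, had 672, 740.1 and 698 CPM in ruxolitinib pools 1 to 3, against 885, 909 and 850.2 CPM in control pools 4 to 6; the groups did not overlap, but the difference was not called (log2 fold change -0.33 ± 0.21, adjusted p = 0.218). Atp5b, the beta subunit that makes ATP, had 714, 955 and 809.9 CPM in ruxolitinib pools 1 to 3, against 1012, 954 and 576 CPM in control pools 4 to 6 and overlapped (log2 fold change -0.04 ± 0.28, adjusted p = 0.92). All 3 genes of the central stalk, which turns inside the head, were lower, with a median of -1.40. Atp5e (mm10 chr2:174461072-174464105, minus strand), the epsilon subunit of that stalk, whose promoter holds an ETS core, had 135, 186 and 181 CPM in ruxolitinib pools 1 to 3, against 725, 896 and 1062 CPM in control pools 4 to 6 (log2 fold change -2.42 ± 0.26, adjusted p = 9.03e-05), the smallest adjusted p among the members. The log2 ratio of Atp5e to Atp5b was -2.41, -2.36 and -2.16 in the ruxolitinib pools, against -0.48, -0.09 and 0.88 in the controls. Atp5e and Atp5b have the lowest and the highest fold change of the complex, so a gap in their ratio follows from that choice. Atp5e (1756 bases) is shorter than Atp5b (4237 bases).

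The c subunit, of which the proton-driven ring is built, is made from a set of genes that encode the same mature protein. All 3 were lower, with a median of -1.83. Atp5g1 had 39.1, 60.1 and 59.9 CPM in ruxolitinib pools 1 to 3, against 177, 226 and 378 CPM in control pools 4 to 6 (log2 fold change -2.29 ± 0.32, adjusted p = 0.000352). Atp5g2 had 125, 160.4 and 155 CPM in ruxolitinib pools 1 to 3, against 519.9, 599 and 443 CPM in control pools 4 to 6 (log2 fold change -1.83 ± 0.23, adjusted p = 0.000211). Atp5g3 had 176, 236 and 221 CPM in ruxolitinib pools 1 to 3, against 532, 641 and 614 CPM in control pools 4 to 6 (log2 fold change -1.50 ± 0.23, adjusted p = 0.000515). In both groups Atp5g3 and Atp5g2 were above Atp5g1 per kilobase, at 96.9 CPM per kilobase under ruxolitinib and 273 in controls for Atp5g3, 87.6 CPM per kilobase under ruxolitinib and 311 in controls for Atp5g2 and 10.8 CPM per kilobase under ruxolitinib and 53.0 in controls for Atp5g1.

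The 4 tested genes of the peripheral stalk, which holds the head still, were lower, with a median of -1.14. So were the 4 small membrane subunits, which join synthase dimers at the edges of cristae, with a median of -1.53. Among them the calls of Atp5k and Atp5o were lost under several alternatives. Atp5k (-1.54) had 32.8, 49.1 and 41.0 CPM in ruxolitinib pools 1 to 3, against 143, 182 and 33.0 CPM in control pools 4 to 6, and control pool 6 lay in the treated range. Atp5o (-0.99), at 58.0, 95.5 and 67.9 CPM in ruxolitinib pools 1 to 3, against 167, 194 and 77.7 CPM in control pools 4 to 6, overlapped between groups as well. Atp5k was not called without ruxolitinib pool 1, 2 or 3 or control pool 5, with no filter (adjusted p = 0.156), in limma-voom (adjusted p = 0.0754) or with length offsets (adjusted p = 0.226). Atp5o was not called without ruxolitinib pool 1 or 3 or control pool 4 or 5, or with length offsets (adjusted p = 0.0518). Atp5s, known as factor B, was at 3.81, 6.08 and 4.55 CPM in ruxolitinib pools 1 to 3, against 2.93, 5.69 and 9.03 CPM in control pools 4 to 6, with no call (log2 fold change -0.29 ± 0.43, adjusted p = 0.584).

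**Figure D4:**
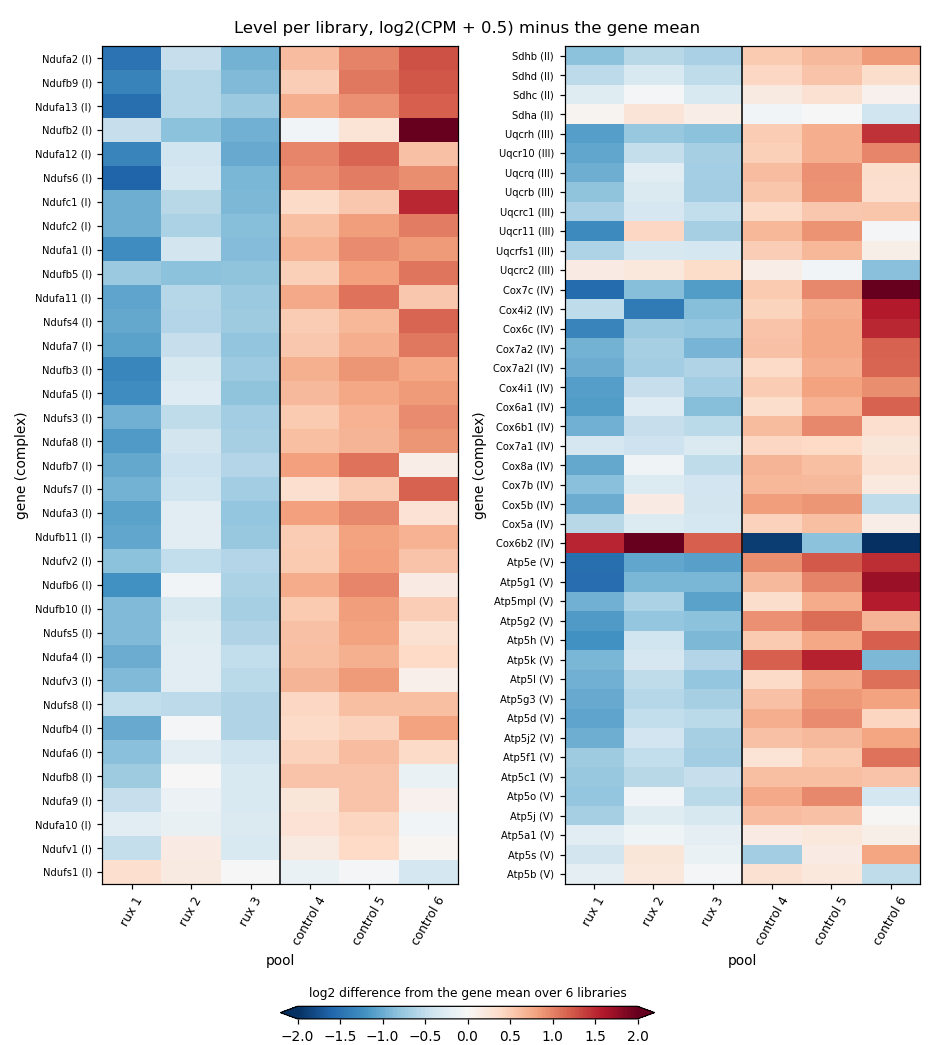
Level of tested members in each library as log2(CPM + 0.5) minus the gene's mean over the 6 libraries, complex I on the left and complexes II to V on the right, with the ruxolitinib pools left of the black line. Blue is below the gene's mean and red above it; colours end at -2 and 2. Control pool 6 holds both the reddest cells, such as Cox7c and Ndufb2, and cells paler than the other controls, such as Atp5k and Cox5b.

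Control pool 6 differed from pools 4 and 5 in both directions. Of the 79 members, 13 were over 1.5-fold higher in pool 6 than in the mean of pools 4 and 5, and 12 were over 1.5-fold lower. Over all 13480 genes tested, 1972 were higher and 2808 lower by that measure. The SD of this log2 ratio was 0.66 over the members and 0.69 over all genes, so the members were not set apart in it. Without that pool, 70 members were called lower (27.4% of all genes), with Cox5b, Sdhc, Ndufa10 and Uqcr11 added, and Cox6b2 was still the member called higher.

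Called genes tended to be short, and so did genes that were lower in general. Members called lower had a median deposited length of 1480 bases, and members not called 2843.5 bases. Among all genes tested, split into 10 equal bins by length, the median log2 fold change was -0.93 in the shortest bin and 0.52 in the longest, and genes under 1500 bases took 10.7%, 12.1% and 12.1% of counts in the ruxolitinib pools, against 18.8%, 19.6% and 21.8% in the controls. Within the shortest bin 24 of 27 members were lower, where 44.1% of all its genes were, and within the next bin 21 of 22, where 38.7% were. Across genes, the Spearman correlation of log2 fold change with length was 0.27 over the 79 members and 0.26 over all 13480, where genes are not independent and share the same 6 libraries.

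With offsets that centre each library within the 10 length bins, 51 members were called lower (26.4% of all genes) and 2 higher (27.7% of all genes), Uqcrc2 joining Cox6b2, and the median of the members was -0.77. Among the 15 members that lost their call were Ndufs8 (-0.25), Uqcrfs1 (-0.44), Cox6a1 (-0.71), Cox6b1 (-0.48), Cox8a (-0.22) and Cox4i2 (-1.26). The median was -0.80 for complex I, -0.38 for complex II, -0.55 for complex III, -0.66 for complex IV and -1.28 for complex V. Whether the rest of the difference goes with length in other ways was not tested.

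**Figure D5:**
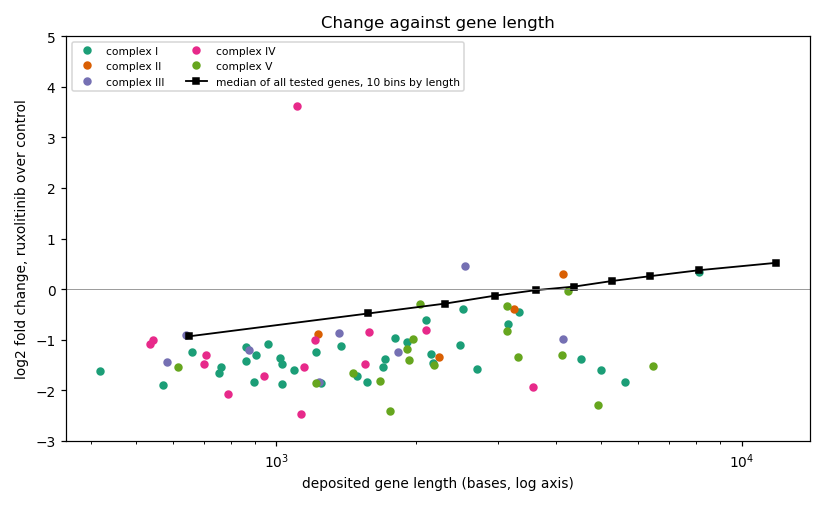
Log2 fold change (ruxolitinib over control) against deposited gene length in bases (log axis), 1 point per gene coloured by complex; black squares give the median of all tested genes in 10 bins by length. The black line runs from -0.93 in the shortest bin to 0.52 in the longest, and most members lie below it, with Cox6b2, Uqcrc2 and Sdha among those above it.

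Reads of overlapping genes can add to these values, since the counting's strand setting is not given. Of the members with counts, 26 overlap a counted gene on the other strand, and in 11 the partner has at least 10% of the member's counts. The case with the most partner reads is Ndufs1, with 4622 counts over the 6 libraries, whose neighbour Eef1b2 has 88290; Eef1b2 itself was lower (log2 fold change -1.74). Braf has 101% of the counts of Ndufb2 and Mrpl36 has 78.4% of those of Ndufs6, so Ndufb2, Ndufs6 and Ndufs1 are uncertain.

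Lists of genes that serve the chain from outside the rule had medians from -1.15 to -0.22, apart from the mitochondrially encoded genes. The counts called in them stand beside 25.3% of all genes tested called lower and 29.9% called higher. Their named falls turned round when scaled to the CD8 identity genes. Assembly factors, which help the subunits together, were lower for complex I in 10 of 16 tested genes (median -0.81), for complex II in 4 of 4 (-1.15), for complex III in 4 of 6 (-0.67), for complex IV in 12 of 21 with 1 higher (-0.91) and for complex V in 2 of 3 (-0.84). Ndufaf8 was at 11.3, 22.2 and 17.3 CPM in ruxolitinib pools 1 to 3, against 46.8, 55.9 and 55.2 CPM in control pools 4 to 6 (log2 fold change -1.64 ± 0.26, adjusted p = 0.000722). Uqcc2, needed to make cytochrome b, was at 17.5, 30.2 and 24.9 CPM in ruxolitinib pools 1 to 3, against 100.2, 93.7 and 72.6 CPM in control pools 4 to 6 (log2 fold change -1.88 ± 0.25, adjusted p = 0.000287). Cox16, which helps to insert copper into the oxidase, was at 5.27, 6.69 and 6.26 CPM in ruxolitinib pools 1 to 3, against 19.7, 22.5 and 18.8 CPM in control pools 4 to 6 (log2 fold change -1.74 ± 0.24, adjusted p = 0.000299). Sdhaf4 (-1.23), which binds the flavoprotein of complex II, and Atpaf2 (-0.84), which binds the alpha subunit of complex V, had the smallest p in their lists. Cox15, which makes the haem of complex IV, was called higher (log2 fold change 0.70 ± 0.27, adjusted p = 0.0466). That call was lost with length offsets (0.52), total-count scaling (0.74), protein-coding genes alone (0.66) and without any 1 of the pools other than control pool 4 (0.52 to 0.78).

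Of 20 electron carriers and other genes of the chain outside the symbol rule, 6 were lower and 2 higher (median -0.28), where 25.3% and 29.9% of all genes were. Ndufab1, the mitochondrial acyl carrier protein and also a complex I subunit, fell (log2 fold change -1.71 ± 0.28, adjusted p = 0.000733), as did Cycs, somatic cytochrome c (log2 fold change -1.54 ± 0.26, adjusted p = 0.00096). Etfdh, which feeds electrons from fatty acid oxidation to ubiquinone, rose (log2 fold change 0.90 ± 0.22, adjusted p = 0.00678), as did Atpif1, the inhibitor of ATP synthase (log2 fold change 1.23 ± 0.36, adjusted p = 0.0159). Etfdh lost its call with length offsets (0.50), and Atpif1 without ruxolitinib pool 2 (0.77). Atpif1 was at 94.8, 216 and 108 CPM in ruxolitinib pools 1 to 3, against 64.1, 76.3 and 37.7 CPM in control pools 4 to 6; it is also known for its part in haem synthesis of developing red cells, whose marker genes were higher in the same libraries, and their part in this difference was not tested.

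The 17 genes of the tricarboxylic acid cycle and pyruvate dehydrogenase were mixed, with 5 lower and 5 higher (median -0.31). These counts are close to the shares of all genes tested, 25.3% lower and 29.9% higher. The smallest p was that of Idh2, the NADP-linked isocitrate dehydrogenase, which rose to 88.5, 85.4 and 55.6 CPM in ruxolitinib pools 1 to 3, against 20.9, 16.4 and 8.72 CPM in control pools 4 to 6 (log2 fold change 2.32 ± 0.33, adjusted p = 0.000408). Idh3a, the catalytic subunit of the NAD-linked enzyme, fell (log2 fold change -1.03 ± 0.19, adjusted p = 0.00134). Of 11 genes for cristae and inner membrane shape 5 were lower (median -0.46), led by the prohibitin gene Phb (log2 fold change -1.62 ± 0.20, adjusted p = 0.000205).

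Of 11 tested regulators 2 were lower and none higher (median -0.22), against 25.3% and 29.9% of all genes tested. Tfam, which packages and transcribes mitochondrial DNA, had 26.2, 25.7 and 25.5 CPM in ruxolitinib pools 1 to 3, against 70.9, 62.1 and 74.6 CPM in control pools 4 to 6 (log2 fold change -1.42 ± 0.19, adjusted p = 0.000246), with no overlap between groups, in the same libraries in which the mitochondrially encoded genes were higher. Gabpb1, the partner of the ETS factor GABPA, also fell (log2 fold change -0.67 ± 0.21, adjusted p = 0.0225), a call lost without ruxolitinib pool 1 (-0.53) or control pool 5 (-0.70). Nrf1 (-0.08), which encodes nuclear respiratory factor 1, Gabpa (-0.44) and Yy1 (-0.03) were not called.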

How the data were processed

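The deposited table holds raw counts of reads per gene as whole numbers, not normalised, with symbols, positions, biotypes and lengths per gene. Reads were aligned with HISAT2 2.0.5 to mm10, per the submitters' processing notes. Libraries were prepared with NEBNext Ultra II reagents, per the labels. Not given in the sources used here are the counter, its strand setting, its handling of reads with several matches, and the gene annotation. Groups came from the sample titles, and the labels give no batch.

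All counts of the 6 libraries were fitted with edgeR 4.0.16 in R 4.3.3 (filterByExpr, TMM factors, robust quasi-likelihood fit), ruxolitinib against control, with Benjamini-Hochberg adjustment over the 13480 genes kept. The threshold was an adjusted p of 0.05. The SE is the size of the log2 fold change divided by the square root of F. CPM uses the counts of tested genes times the TMM factor. Levels near 1 CPM rest on few reads. The procedure was tested on simulated counts in which few genes changed, equally in both directions. They were given no shift like that of the haemoglobin genes here, so the test does not cover such a shift.

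Alternatives were RLE, upper-quartile and total-count scaling, TMM without haemoglobin genes, scaling to 16 CD8 identity genes, length offsets in 10 bins, other filters, protein-coding genes alone, DESeq2 1.42.0, limma-voom 3.58.1 with and without quality weights, and leaving out each pool. The members, gene lists and alternatives were chosen with earlier results of these data known, so no p is given for a list. Values in each library are given for the extremes of each complex, its core subunits, isoform sets and members against the direction of their complex. From each related list the genes with the smallest p were named, and a further few after their values were seen. Each p-value weighs the difference between the groups against the spread between pools. Single values of a few genes are not reported here.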

Additional observations from a re-analysis of the deposited data

How the results depend on the processing

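The counts of members called stayed close under RLE, upper-quartile and total-count scaling, TMM without haemoglobin genes, both other filters, protein-coding genes alone, DESeq2 and limma-voom, with 64 to 71 members called lower and 1 higher. Over all genes, 15.6% (no filter, 64 members) to 32.2% (quality weights, 71 members) were then called lower and 20% to 35.9% higher. Calls lost there were Ndufa9 and Ndufb8 with total counts, Atp5k and Ndufb2 with no filter, and Atp5k in limma-voom; among the genes followed, signs turned for Atp5b, at 0.00097 with total counts, and Atp5s, at 0.089 in limma-voom with quality weights. Leaving out 1 pool at a time gave 61 to 70 members lower and 1 higher (2306 to 3831 and 3444 to 4482 of all genes). The medians then ran from -1.51 to -1.17 for all members, -1.58 to -1.21 for complex I, -0.72 to -0.57 for complex II, -1.42 to -0.97 for complex III, -1.49 to -1.22 for complex IV and -1.50 to -1.24 for complex V. The log2 fold change of Atp5b ran from -0.26 to 0.12 and that of Atp5s from -0.62 to 0.15. Scaling to the CD8 identity genes left 0 members lower and 12 higher (62 and 9558 of all genes) and turned the medians to 0.64 for all members, 0.57 for complex I, 1.37 for II, 0.90 for III, 0.56 for IV and 0.55 for V; by construction it sets each gene against T cell RNA. With it 70 of the 79 members changed sign; among them are the genes followed through every alternative, which in complex I were Ndufa2 0.034, Ndufs7 0.53, Ndufs8 0.91, Ndufv1 1.61, Ndufa4 0.84, Ndufa10 1.56, Ndufa9 1.39 and Ndufb8 1.31. In complex II such genes were Sdhb 0.60, Sdhd 1.11 and Sdhc 1.63. In complex III such genes were Uqcrh 0.059, Uqcrfs1 1.12, Uqcrc1 0.99 and Uqcr11 1.14. In complex IV such genes were Cox6a1 0.46, Cox4i1 0.45, Cox5a 1.18, Cox7a1 0.81, Cox7a2 0.25, Cox7a2l 0.34, Cox6b1 0.66, Cox8a 0.96 and Cox5b 1.17. In complex V such genes were Atp5b 1.99, Atp5a1 1.66, Atp5g2 0.15, Atp5g3 0.45, Atp5s 1.60, Atp5k 0.52 and Atp5o 1.07. Followed genes outside the members that turned were Ndufaf8 0.29, Sdhaf4 0.70, Uqcc2 0.092, Cox16 0.22, Atpaf2 1.11, Ndufab1 0.25, Tfam 0.55, Phb 0.31, Gabpb1 1.28, mt-Nd3 0.68, Cycs 0.44 and Idh3a 0.91. Length offsets gave 2 members higher, medians of -0.77 for all members, -0.80 for complex I, -0.38 for II, -0.55 for III and -0.66 for IV, and -0.053 for Ndufs1; the cause was not tested. No paired analysis was possible because the pools of the groups share no replicate numbers. With 3 pools a group, genes near 1 CPM such as Cox7a1 are limited by depth.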

Other observations

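Ndufb1-ps, annotated in the table as a lncRNA that shares a promoter and named as a pseudogene of the complex I subunit gene Ndufb1, was outside the protein-coding rule. It had 514, 651 and 681 counts in ruxolitinib pools 1 to 3, against 2377, 2517 and 4843 counts in control pools 4 to 6. That is 37.6, 49.5 and 43.0 CPM under ruxolitinib, against 131.6, 165 and 302 CPM in controls, with no overlap (log2 fold change -2.20 ± 0.32, adjusted p = 0.000406 by edgeR). This level lies within the range of the protein-coding complex I genes, and the fold change is below that of every one of them.

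Among genes outside the members, mt-Co3 was at 46.8, 44.1 and 37.4 CPM in the ruxolitinib pools, against 58.0, 24.4 and 387.9 CPM in the controls, where pool 6 alone was high. Pdhb was at 78.1, 93.6 and 74.8 CPM in the ruxolitinib pools, against 124.5, 152 and 398 CPM in the controls (log2 fold change -1.45 ± 0.40, adjusted p = 0.0123 by edgeR), with pool 6 again the highest.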
